A study of Mus musculus with 19 samples.

Results

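The 7 genes described here encode the core of the MHC class II antigen presentation machinery: *H2-Aa*, *H2-Ab1*, *H2-Eb1*, *Cd74*, *Ciita*, *H2-DMa* and *H2-DMb1*. They were selected by symbol, through the Ensembl identifiers, from the 46078 genes of the deposited table, and all 7 were found. Their level was followed in 19 mouse libraries of mammary gland and mammary tumor, sequenced to compare tumors and glands with mutant or wild-type p53 in stromal fibroblasts. The 3 wild-type glands (MG-WT) came from age-matched normal mice. The 4 MG-N glands came from tumor-bearing mice without malignant lesions in the gland, where replicate 1 carried MMTV-neu and Fsp-Cre and replicates 2 to 4 carried MMTV-neu and the conditional p53wm-R172H/+ allele without Cre. The 4 MG-NP glands came from tumor-bearing mice with MMTV-neu, p53wm-R172H/+ and Fsp-Cre together. The 4 T-N tumors carried MMTV-neu and Fsp-Cre, and the 4 T-NP tumors carried all 3 alleles. All groups except MG-WT therefore share the MMTV-neu transgene, which drives the ErbB2 receptor in mammary epithelium. Fsp-Cre is driven by the promoter of the fibroblast gene *S100a4*, which is also used by some leukocytes, so the recombined cells need not all be fibroblasts. The mice were female, and by the study's methods the transgenic mice combined FVB, BALB/c and C57BL/6 parentage. Ages and the strain of the wild-type mice are not given in the sources used here. Library names of T-NP replicates 1 and 2 carry the same animal number, so these may be pieces from a single animal.

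MHC class II molecules are displayed by dendritic cells, B cells and macrophages, and present peptides from the endosomal pathway to CD4+ T cells. The α and β chains pair in the endoplasmic reticulum with the invariant chain, CD74, which blocks the peptide groove and steers the complex to endosomes. There the DM heterodimer helps exchange the leftover invariant chain fragment for an antigenic peptide. Transcription of all these genes depends on CIITA, a coactivator that binds no DNA itself but docks on a complex of RFX, CREB and NF-Y factors at a conserved promoter module, and interferon-gamma can induce it in cells outside the immune system. In a bulk sample fewer class II-positive cells and less class II RNA per cell cannot be told apart.

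Of the 7 genes, 5 lie within the H2 region of chromosome 17 in GRCm38: *H2-DMa* (ENSMUSG00000037649) at 34119541-34139101, *H2-DMb1* (ENSMUSG00000079547) at 34153072-34160230, *H2-Ab1* (ENSMUSG00000073421) at 34257689-34269419, *H2-Aa* (ENSMUSG00000036594) at 34282744-34287823 and *H2-Eb1* (ENSMUSG00000060586) at 34305867-34316674. *Ciita* (ENSMUSG00000022504) lies on chromosome 16 at 10480059-10528418 and *Cd74* (ENSMUSG00000024610) lies outside the H2 region too. Because these genes are known for a shared promoter module, the proximal promoters of the H2 genes were searched for the letters ACNGATG, which match the core of the X box of the E and DM β-chain genes, followed 18 to 28 bases later by ATTGG, the letters of the Y box bound by NF-Y. Both strands were searched in 32851 RefSeq windows (GRCm38.p6), each running from 250 bases before to 50 bases after a start site. For the class II genes named below, only the strand of the gene was searched. ACNGATG alone was present in 9.85% of windows and ATTGG alone in 37.4%, whereas the ordered pair was present in 32 windows, or 0.0974%. The windows of 2 members, *H2-Eb1* and *H2-DMb1*, held the pair, as did those of 2 other class II β-chain genes, *H2-DMb2* and *H2-Eb2*. These stretches are shown because they are the sequences these genes share upstream of the start site, with the matched letters in capitals:
H2-Eb1, chr17:34305779-34305812, plus strand, 88 to 55 bases before the start: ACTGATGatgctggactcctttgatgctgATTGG
H2-DMb1, chr17:34153100-34153134, plus strand, 91 to 57 bases before the start: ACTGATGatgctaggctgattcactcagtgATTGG
H2-DMb2, chr17:34145129-34145163, plus strand, 120 to 86 bases before the start: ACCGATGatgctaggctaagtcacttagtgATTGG
H2-Eb2, chr17:34325546-34325579, plus strand, 129 to 96 bases before the start: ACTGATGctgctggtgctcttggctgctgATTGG

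The *H2-Aa* window held ATTGG, beginning 48 bases before the start, but not the pair. Its 150 bases upstream of the start (chr17:34287824-34287973, minus strand) are given with ATTGG in capitals for comparison with the same stretch of *H2-Eb1* (chr17:34305717-34305866, plus strand), in which the pair is in capitals:
H2-Aa: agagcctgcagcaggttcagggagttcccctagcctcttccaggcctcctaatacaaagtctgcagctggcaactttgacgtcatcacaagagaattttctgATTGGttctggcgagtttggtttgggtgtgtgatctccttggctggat
H2-Eb1: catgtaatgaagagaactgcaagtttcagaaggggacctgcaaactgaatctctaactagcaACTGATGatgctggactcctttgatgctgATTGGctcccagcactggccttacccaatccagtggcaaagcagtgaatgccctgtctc

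A letter match describes these windows and is not a measured binding site. The letters match the X box of the E and DM β-chain genes, so finding the pair in those genes follows from the choice of letters. Its share over all windows is a background and no test. Both *H2-DMa* windows lacked the pair, as did the windows of *H2-Oa* and *H2-Ob*, which held ATTGG. The table held no windows for *H2-Ab1*, *Ciita* and *Cd74*.

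MG-WT libraries held 54677315 to 62645459 recovered reads and the other libraries 20899152 to 27262440. The glands differed in tissue makeup. Over 6 white adipocyte genes the summed normalized count was 1108 to 1526 in MG-WT and 77183 to 244611 in MG-N and MG-NP. Over 7 luminal epithelial genes it was 75458 to 90058 in MG-WT and 8746 to 26807 in MG-N and MG-NP, against 94114 to 176821 in tumors. Of these 7 genes, *Krt19* went the other way, with means of 19170 in MG-WT, 3194 in MG-N, 3584 in MG-NP, 126 in T-N and 463 in T-NP. Skeletal muscle genes summed to 2641088 and 1445563 in MG-NP replicates 2 and 4. They summed to 365102 in replicate 1 and 11170 in replicate 3, against at most 16007 in MG-N and 26452 in tumors. Replicates 2 and 4 are called muscle-rich below, but replicate 1 also exceeded every MG-N gland and stays in the fits without them. Genes listed for lymph node stroma, such as *Ccl21a* and *Cr2*, summed to 272 to 4995 in MG-N, 187 to 5989 in MG-NP and 795 to 2869 in MG-WT, against 7.38 to 287 in tumors. In MG-N the mean was 1540 for *Cr2* and 520 for *Ccl21a*, and how much of the sum comes from B cells was not tested. Mammary fat pads contain a lymph node, and these sums are repeated below where they move with class II genes.

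All 7 genes were expressed in every library, with at least 103 reads. Together they took 0.026% to 0.23% of a library's counts. Per kilobase of the longest coding transcript, the mean normalized count in MG-N was highest for *Cd74*, at 8789, followed by *H2-Aa* at 5452, *H2-Ab1* at 3037 and *H2-Eb1* at 2501. The DM genes were lower, at 272 for *H2-DMb1* and 249 for *H2-DMa*, and *Ciita* was lowest at 143. This order of *Cd74*, the classical chains, the DM chains and *Ciita* also held for the mean levels per kilobase in T-N, where *Cd74* was at 4515 and *Ciita* at 41.5.

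The classical α chain *H2-Aa*, which forms the I-A molecule with the *H2-Ab1* product, is described first. Its normalized counts were 2270.1, 2601 and 4449 in MG-WT and 6279, 4874, 6378 and 7069 for the MG-N glands. The MG-NP glands had 10057, 2878, 9689 and 4299. In tumors they were 3590.2, 1850.2, 4327 and 1530.0 in T-N and 1452, 2551, 4279.8 and 4158 in T-NP. Every MG-N gland was above every wild-type gland (31.5% of 19017 tested genes) and above every T-N tumor (26.4% of 17950 tested genes). Every MG-N gland was also above every T-NP tumor, a pair that differs in alleles too and for which no share was computed. MG-NP overlapped every other group. The group means ran from MG-NP (6730.4 ± 3677, SD, n = 4) and MG-N (6150.0 ± 920.3, n = 4) to T-NP (3110.0 ± 1357, n = 4), MG-WT (3107 ± 1174, n = 3) and T-N (2824 ± 1350.2, n = 4). Among neighbours in this order, only MG-N and T-NP did not overlap.

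**Figure D1:**
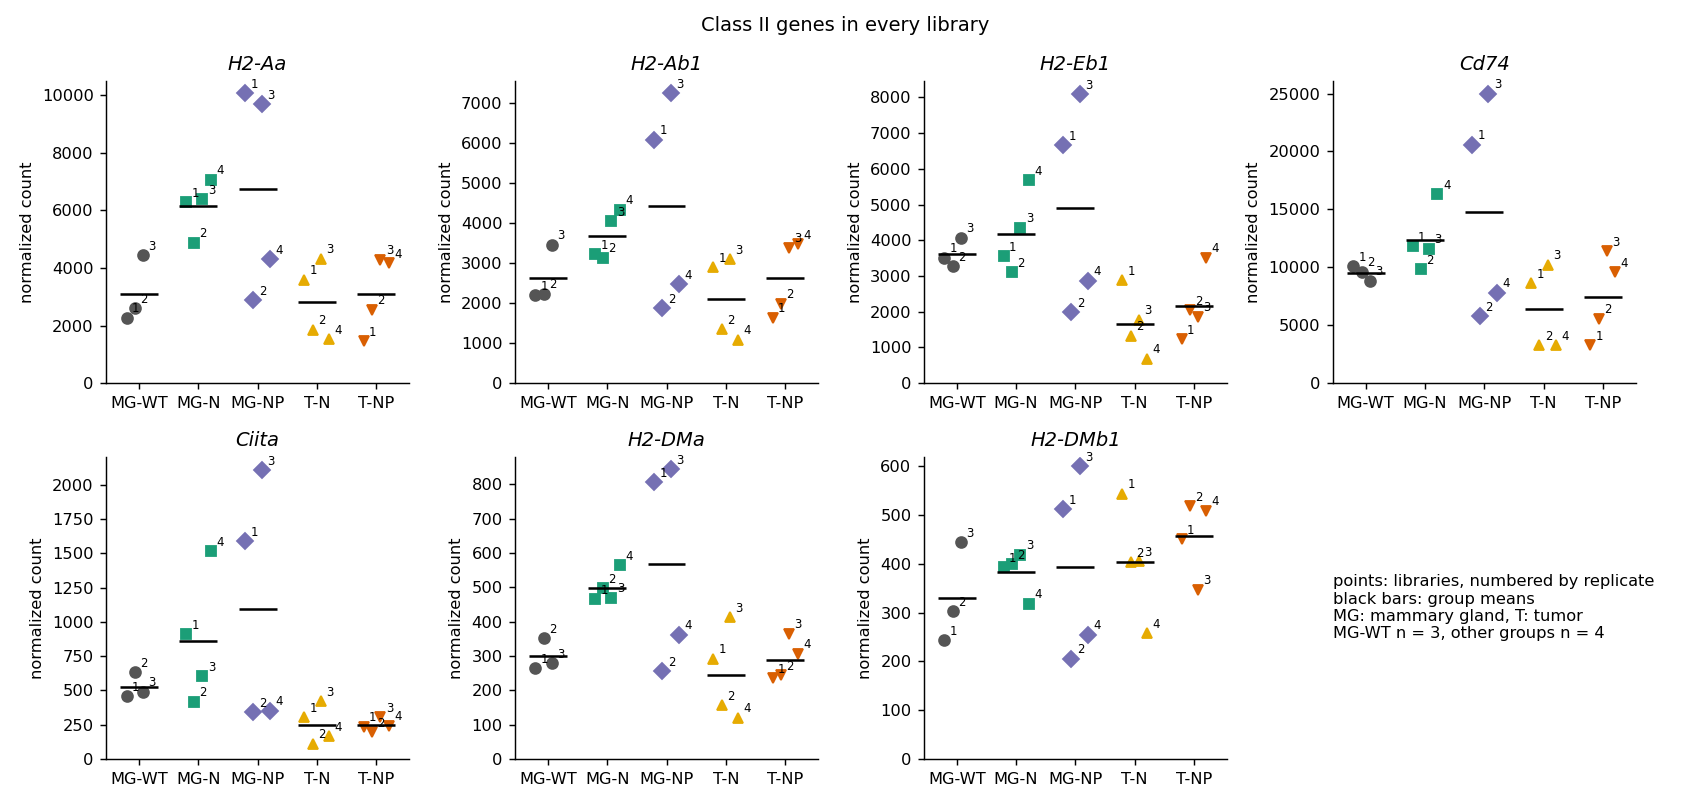
Normalized counts (linear axis from 0) of the 7 class II genes in every library, one panel per gene, with points numbered by replicate and bars at the group means. MG-NP replicates 1 and 3 lie above replicates 2 and 4 in every panel, and *H2-DMb1* alone has its highest group mean in tumors (456 in T-NP).

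The β chain *H2-Ab1* followed its partner. It stood at 2201, 2236 and 3452 in MG-WT, at 3224, 3128, 4043 and 4329.6 in MG-N, at 6072, 1871, 7229 and 2466 in MG-NP, at 2895, 1344, 3095 and 1083 in T-N, and at 1631, 1979.9, 3381 and 3472 in T-NP. All T-N tumors were below all MG-N glands, as in 26.4% of tested genes, if narrowly, since the highest tumor had 3095 and the lowest gland 3128. *H2-Eb1*, the β chain of the second classical molecule, I-E, stood at 3559, 3108, 4355 and 5677 in MG-N and at 2891, 1325, 1774 and 687 in T-N, again without overlap. The MG-WT glands had 3271 to 4079, the MG-NP glands 1979.8 to 8089.9 and the T-NP tumors 1236 to 3512.

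*Cd74* had 9829 to 16296 normalized counts in MG-N, 5765 to 24991 in MG-NP, 8854 to 10119 in MG-WT, 3285 to 10242 in T-N and 3301 to 11378 in T-NP. Its MG-N and T-N ranges overlapped, since T-N replicate 3 (10242) exceeded MG-N replicate 2 (9829). *Ciita*, the coactivator, stood at 458, 634 and 489 in MG-WT, at 909, 416, 605 and 1516 in MG-N, at 1587, 343, 2105 and 351 in MG-NP, at 303, 109.6, 419 and 166 in T-N, and at 235, 196, 303 and 243 in T-NP. It was the member with the widest spread among glands. All 4 T-NP tumors were below all MG-NP glands for *Ciita*, the only member of which this was true (27.4% of 17880 tested genes), whereas T-N replicate 3 (419) was just above MG-N replicate 2 (416).

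*H2-DMa* and *H2-DMb1* encode the α and β chains of the same DM heterodimer, yet their levels were arranged differently. *H2-DMa* stood at 465, 498, 469.6 and 563 in MG-N, above all wild-type glands (265, 352 and 279), all T-N tumors (292, 156, 412 and 120.2) and all T-NP tumors (234, 244, 365 and 306). Over all tested genes, MG-N lay wholly above MG-WT in 31.5%, and T-N wholly below MG-N in 26.4%. For MG-N against T-NP, which also differ in alleles, this share was not computed. *H2-DMb1* stood at 394, 399, 419 and 318 in MG-N, at 544, 404, 406 and 258 in T-N, and at 451, 518, 347 and 509 in T-NP. Its 5 group means spanned only 330.4 ± 104 (MG-WT) to 456 ± 79 (T-NP), and every neighbouring pair of groups overlapped. Among 75-base windows of *H2-DMb1* transcripts, 15.8% also occurred in the neighbouring *H2-DMb2*, so part of its reads could have been split between these 2 genes. No such window was shared with another gene for the other 6 members.

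To ask whether class II genes differed between glands of tumor-bearing mice and normal glands, MG-N was compared with MG-WT by limma on log2(normalized count + 1). MG-WT also lacked MMTV-neu and had deeper libraries, and its strain is not given. These cannot be told apart from tumor bearing, here or in MG-NP against MG-WT. A gene was called at an adjusted p-value (Benjamini-Hochberg) under 0.05 with at least a 2-fold difference. All 7 members were higher on average in MG-N, but only *H2-Aa* was called, at 2.05-fold (log2 difference 1.04 ± 0.24 SE, limma adjusted p = 0.00585). The background share was larger: 3636 of 19017 tested genes, or 19.1%, were called higher. *H2-DMa* was 1.68-fold higher, with a small spread (log2 difference 0.75 ± 0.15, limma adjusted p = 0.0031), and stayed under the fold threshold. In these 2 members all MG-N glands were above all MG-WT glands, as in 31.5% of the tested genes. The other 5 members differed by 0.17 (*H2-Eb1*) to 0.56 (*Ciita*) on the log2 scale with limma adjusted p-values of 0.0534 to 0.489. The *H2-Aa* call was not made by edgeR or DESeq2, which called 19.6% and 20% of tested genes higher. Without MG-WT replicate 1, MG-WT replicate 2 or MG-N replicate 4, 0 members were called. Genes of white adipocytes (6 of 6 called higher), macrophages (9 of 10), dendritic cells (5 of 10), skeletal muscle (7 of 8) and fibroblasts (5 of 7) and luminal genes (7 of 7 called lower) moved with this comparison, and their part in it was not tested.

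In MG-NP against MG-WT, 0 of the 7 members were called by limma, 0 had an unadjusted p-value under 0.05, and all 7 were higher on average. Here 16.4% of 19065 genes were called higher. edgeR called 0 members and DESeq2 called 1, with 18.9% and 20.9% of tested genes called higher. *H2-Aa* had nearly the same mean difference as in MG-N, 0.99 on the log2 scale, but its standard error was 0.49, against 0.24 in the former comparison, and its limma adjusted p-value was 0.132. Both comparisons share the 3 MG-WT glands. Without MG-NP replicates 2 and 4, which had the 2 highest skeletal muscle sums, 6 members were called higher, with 18.7% of all tested genes. Without replicates 1 and 3, which had the 2 highest lymph node stroma sums, 0 members were called higher, with 20.7% of all genes. Both come from a single split of the MG-NP glands, along which all 7 members also separated, so these counts describe the glands and are not a test.

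**Figure D2:**
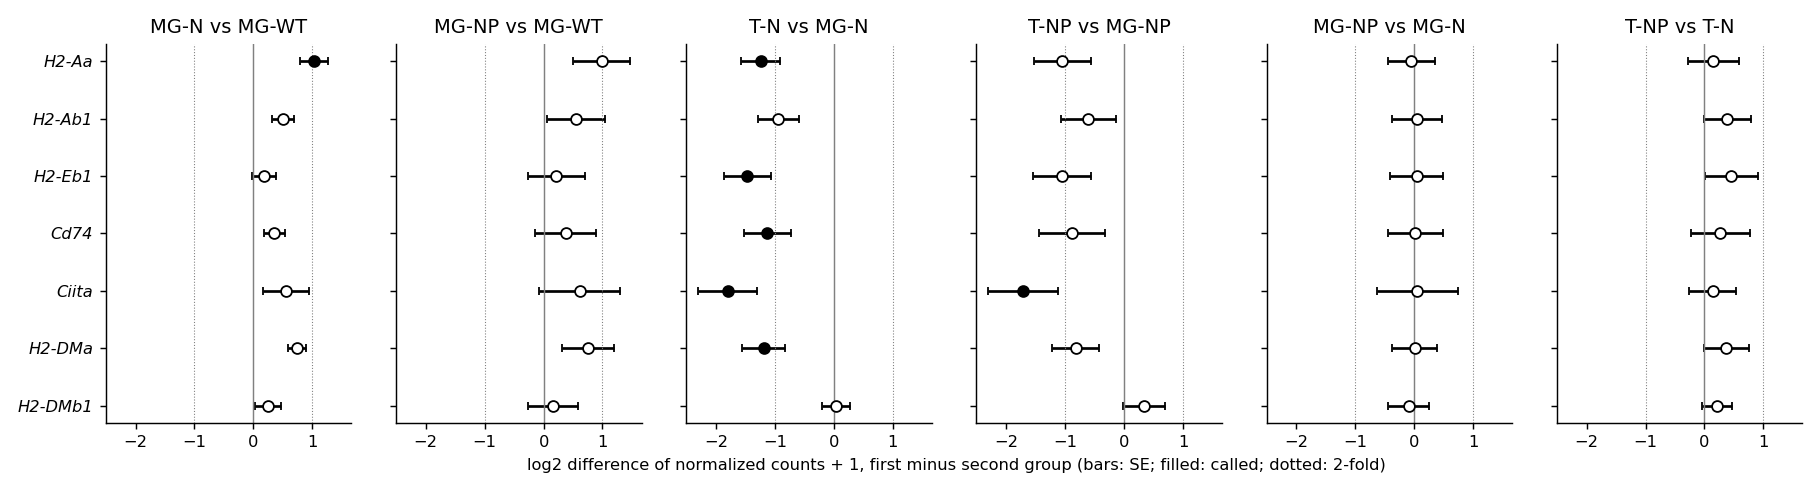
Log2 differences (first minus second group, of normalized count + 1) of the 7 class II genes in the 6 pairwise comparisons, with standard errors as bars, filled points for called genes and dotted lines at 2-fold. In T-N against MG-N 5 members are called lower, while *H2-DMb1* lies at 0.03, and in the 2 comparisons between genotypes every point lies between -0.09 and 0.46.

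Tumors were compared with glands, T-N with MG-N and T-NP with MG-NP, to follow class II genes between gland and tumor. T-NP and MG-NP carried the same alleles, but only MG-N replicate 1 had the alleles of the T-N tumors, so in T-N against MG-N the tissue and the alleles of the other 3 glands cannot be told apart. In T-N against MG-N, 5 of 7 members were called lower, where 22.3% of 17950 genes were called lower. *Ciita* had the largest difference, 3.49-fold lower in tumors (log2 difference -1.80 ± 0.50 SE, limma adjusted p = 0.0161). *H2-Eb1* was 2.76-fold lower (-1.47 ± 0.40, limma adjusted p = 0.015) and *H2-Aa* 2.37-fold lower (-1.24 ± 0.33, limma adjusted p = 0.0128). *H2-DMa* and *Cd74* were 2.28-fold and 2.19-fold lower, with limma adjusted p-values of 0.0245 and 0.0413. *H2-Ab1* passed the p-value but not the fold threshold (-0.94 ± 0.35, limma adjusted p = 0.0477). *H2-DMb1* did not differ detectably (0.03 ± 0.24, limma adjusted p = 0.916). The median over the 7 members was -1.19, against -0.05 over all tested genes. In 4 members, *H2-Aa*, *H2-Ab1*, *H2-Eb1* and *H2-DMa*, all tumors were below all glands, as in 26.4% of the tested genes. The count of called members was 2 without T-N replicate 4 and 3 without MG-N replicate 2, MG-N replicate 4 or T-N replicate 2. The share of all genes called in these fits is not given here. edgeR called 3 members lower, with 21.1% of tested genes.

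In T-NP against MG-NP, only *Ciita* was called lower, at 3.29-fold (log2 difference -1.72 ± 0.60 SE, limma adjusted p = 0.0367), where 24% of 17880 genes were called lower. *H2-Aa*, *H2-Eb1*, *Cd74*, *H2-DMa* and *H2-Ab1* had log2 differences of -1.05, -1.05, -0.88, -0.82 and -0.60, with limma adjusted p-values of 0.0945 to 0.297. *H2-DMb1* had a log2 difference of 0.34 ± 0.35. Standard errors were larger than in T-N against MG-N for all 7 members, 0.35 to 0.60 against 0.24 to 0.50. When T-NP replicates 1 and 2 were averaged to 1 sample, 0 members were called. The same held without MG-NP replicate 1 or 3 or without any single T-NP tumor, whereas 4 members were called without MG-NP replicate 2. The share of all genes called in these fits is not given here, so the counts describe the glands only.

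The 4 MG-NP glands split in the same way for the leukocyte readouts, with replicates 1 and 3 above replicates 2 and 4. *Ptprc*, the pan-leukocyte gene CD45, had 15527, 1789, 14320.0 and 2601 normalized counts in replicates 1 to 4. The summed count of 8 B cell genes was 9296, 329.7, 15628 and 3439, that of 8 T cell genes was 6255, 465, 7143 and 683, and that of the 5 lymph node stroma genes was 4469, 187, 5989 and 763. The dendritic cell sum was 7056, 2531, 4487 and 2876. The macrophage sum was spread less widely, at 22677, 15118, 22438 and 17850. The class II sum in the same glands was 46282, 13298, 53546 and 18410. Replicates 1 and 3 were thus high and replicates 2 and 4 low in each of these sums. In MG-N, replicate 4 had the highest class II sum (35769), the highest pan-leukocyte sum (24269) and the highest lymph node stroma sum (4995). Replicate 1 had nearly the same lymph node stroma sum (4839) but a class II sum of 26655, below that of replicate 3 (27889), whose stroma sum was 1403.

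**Figure D3:**
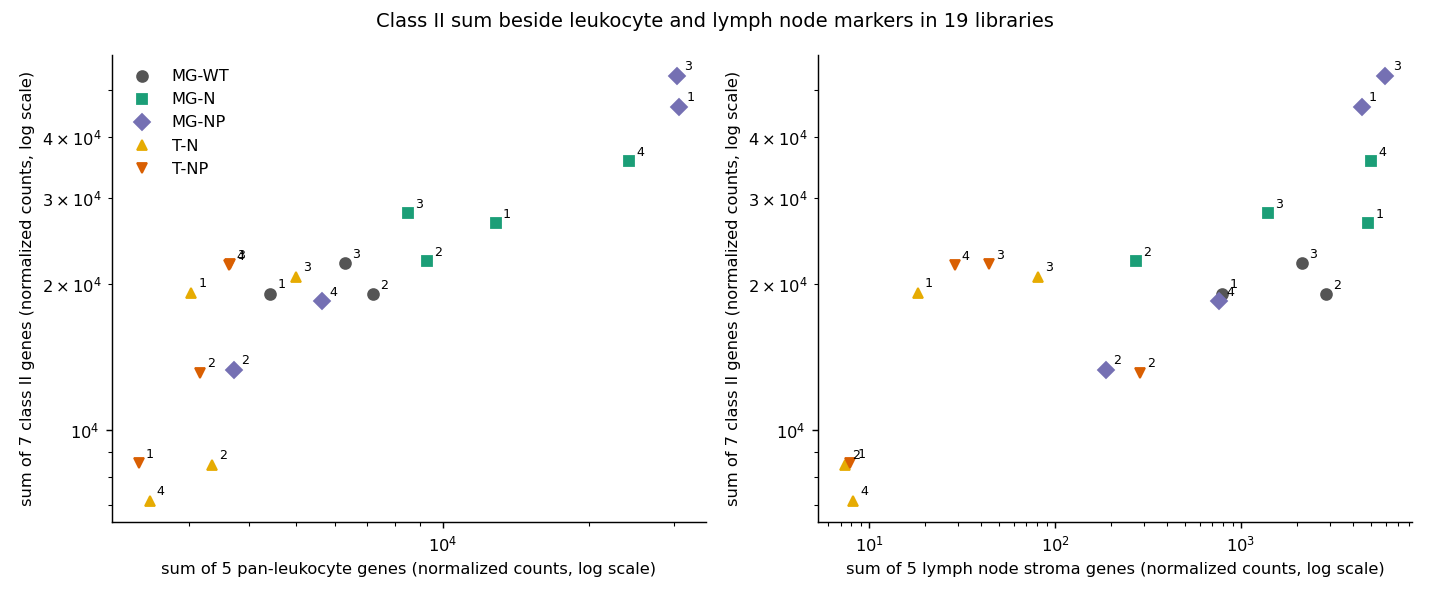
Sum of the 7 class II genes in each of 19 libraries against the sum of 5 pan-leukocyte genes (left) and of 5 lymph node stroma genes (right), in normalized counts on log axes, with points numbered by replicate. MG-NP replicates 1 and 3 and MG-N replicate 4 are highest on the vertical axis and have at least 24269 pan-leukocyte counts, and the tumors have at most 4981.

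Many leukocyte genes moved with the tumor comparisons, and so did genes of other tissues. All 6 white adipocyte genes were called lower in both comparisons, with sums of 248 to 4071 in T-N and 431 to 1169 in T-NP, and 8 of 8 skeletal muscle genes were called lower in T-NP against MG-NP. Their part in the class II differences was not tested. Between T-N and MG-N, limma called lower 5 of 5 pan-leukocyte, 9 of 10 dendritic cell, 7 of 8 B cell, 8 of 8 T cell and 4 of 10 macrophage genes, as well as 3 of 3 tested lymph node stroma genes. The dendritic cell sum was 3725 to 6712 in MG-N and 1028 to 1391 in T-N, the B cell sum 156 to 8302 and 41.1 to 746, and the macrophage sum 21789 to 57878 and 9314 to 20858. In T-N, the lymph node marker *Madcam1* was at 0 in all 4 tumors. In T-NP against MG-NP, 2 of 5 pan-leukocyte, 8 of 10 dendritic cell, 8 of 8 B cell, 7 of 8 T cell and 3 of 10 macrophage genes were called lower. Here 1 macrophage gene was called higher, and the median log2 difference of that list was -0.05, against -0.07 over all tested genes. The dendritic cell gene *Itgax* had higher means in tumors, at 417 in MG-N and 821 in T-N, and 493 in MG-NP and 781 in T-NP.

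When each library was scaled to the same mean log2 level of the 5 pan-leukocyte genes, the direction of the tumor comparisons turned for most members. Between T-N and MG-N the log2 differences became 0.51 for *H2-Aa*, 0.81 for *H2-Ab1*, 0.28 for *H2-Eb1*, 0.62 for *Cd74* and 0.56 for *H2-DMa*, and -0.06 for *Ciita*, with none of these 6 called. This scaling moved all genes together, from a median of -0.05 to 1.68, so the members stayed below the median of all genes, except *H2-DMb1*. *H2-DMb1* was called higher (1.78 ± 0.57, limma adjusted p = 0.00371), as were 62.7% of 17950 genes. In T-NP against MG-NP all 7 members were positive under this scaling, from 0.04 for *Ciita* to 2.09 for *H2-DMb1*, which alone was called higher (limma adjusted p = 0.0495), against 32.5% of 17880 genes. The median of all genes moved from -0.07 to 1.66.

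The glands with the 2 highest lymph node stroma sums in each group were also left out. In T-N against MG-N, without MG-N replicates 1 and 4, the differences stayed near their size for *H2-Aa* (-1.11), *H2-Ab1* (-0.90), *H2-Eb1* (-1.32), *Cd74* (-0.94) and *H2-DMa* (-1.15), and were smaller for *Ciita* (-1.19). With 2 glands left none of the 7 was called, while 16.2% of 18791 genes were called lower. In T-NP against MG-NP, without MG-NP replicates 1 and 3, they shrank to -0.30 for *H2-Aa*, -0.24 for *H2-Eb1*, -0.0035 for *Cd74*, -0.10 for *H2-DMa* and -0.52 for *Ciita*, and *H2-Ab1* turned to 0.21. *H2-DMb1* moved the other way, from 0.34 to 0.98 (limma adjusted p = 0.00922), just under the fold threshold. None was called, while 24.6% of 18812 genes were called lower. MG-NP replicates 1 and 3 were also the 2 highest MG-NP glands for all 7 members. Leaving them out therefore moves the gland mean toward the tumors whatever sets these glands apart. How much of the tumor difference comes from lymph node tissue in the glands was not tested.

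**Figure D4:**
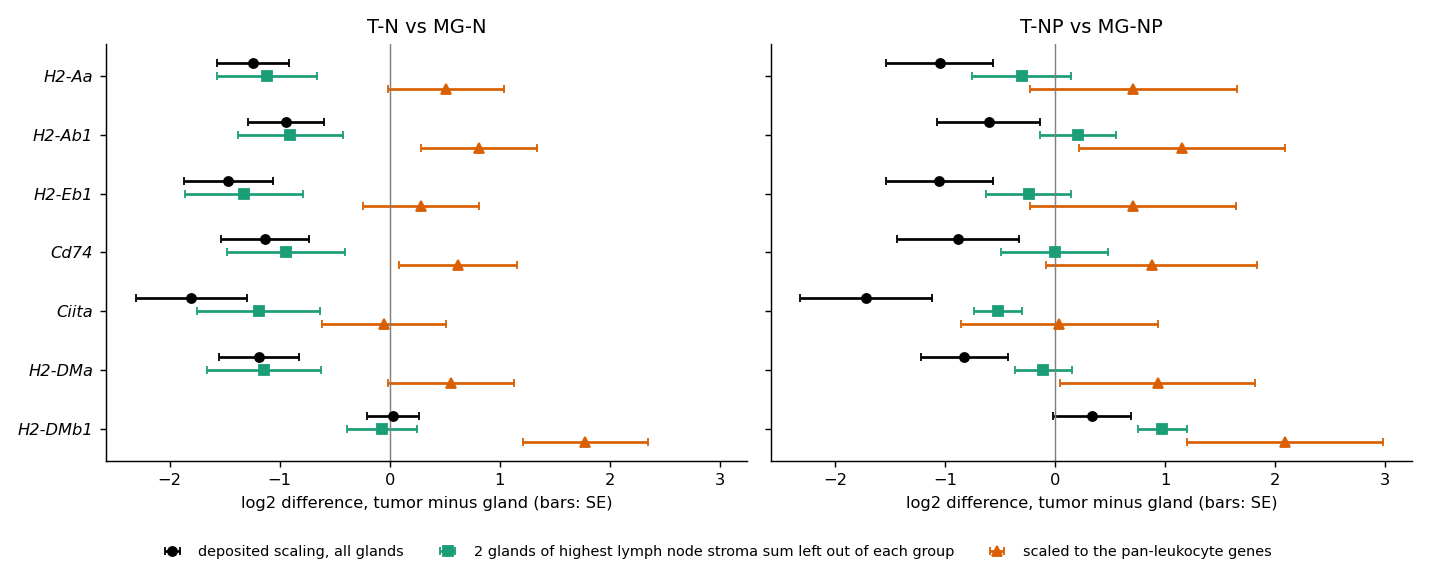
Log2 differences, tumor minus gland, of the 7 class II genes in T-N against MG-N (left) and T-NP against MG-NP (right), with standard errors as bars. Circles use the deposited scaling and all glands, squares leave out the 2 glands with the highest lymph node stroma sums of each gland group, and triangles scale each library to 5 pan-leukocyte genes; *H2-Aa* lies at -1.24, -1.11 and 0.51 in the left panel.

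As a within-library measure, *H2-Aa* was divided by *Ptprc*. This ratio was 0.54 to 1.55 in MG-N, 0.65 to 1.65 in MG-NP, 1.41 to 2.88 in T-N and 2.00 to 3.71 in T-NP. In T-NP it was 2.65-fold that of MG-NP without overlap (two-sided exact permutation p = 0.0286, the smallest that 4 against 4 allows, and 0.0381 adjusted over the 4 ratio tests made). In T-N it was 1.96-fold that of MG-N with overlap (exact permutation p = 0.114). The ratio was chosen after its values were seen, so these p-values are descriptive and the adjustment does not cover that choice. The T-NP test also counts replicates 1 and 2 as separate animals, which they may not be. Within MG-NP the ratio was 0.65 and 0.68 in replicates 1 and 3, against 1.61 and 1.65 in replicates 2 and 4. The lack of overlap was not kept with all pan-leukocyte genes. *H2-Aa* minus their mean log2 level was 1.11 to 2.46 in MG-NP and 1.85 to 2.86 in T-NP. Under the pan-leukocyte scaling the log2 difference was 0.71 (limma adjusted p = 0.525).

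The RNA ratio of the DM β chain gene *H2-DMb1* to *H2-DMa* was higher in tumors than in MG-N and MG-NP glands. *H2-DMb2*, a second DM β chain gene, is not part of this ratio and had lower means in tumors. These were 564 in MG-N and 203 in T-N, and 794 in MG-NP and 161 in T-NP. The balance between all DM chains was not tested. The *H2-DMb1* to *H2-DMa* ratio stood at 0.85, 0.80, 0.89 and 0.56 in the MG-N glands, at 0.64, 0.80, 0.71 and 0.70 in the MG-NP glands, but at 1.86, 2.59, 0.99 and 2.15 in T-N and at 1.92, 2.13, 0.95 and 1.67 in T-NP. All 8 tumors were above all 8 glands of these groups. The geometric mean was 2.34-fold higher in T-N than in MG-N and 2.24-fold higher in T-NP than in MG-NP (two-sided exact permutation p = 0.0286 in each, the smallest possible, 0.0381 adjusted over the 4 ratio tests). This ratio was chosen after its values were seen, so its p-values are descriptive and their adjustment does not cover that choice. The T-NP value again counts replicates 1 and 2 as separate animals, which they may not be. The ratio does not depend on the scaling of libraries, but it does depend on how reads shared with *H2-DMb2* were counted. In MG-WT it was 0.92, 0.86 and 1.59, overlapping MG-N and both tumor groups. *H2-DMa* divided by *H2-Aa*, in contrast, was 0.0736 to 0.102 in MG-N and 0.0786 to 0.0952 in T-N, and 0.0800 to 0.0888 in MG-NP and 0.0736 to 0.161 in T-NP.

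*H2-Eb1* departed from *H2-Aa* in particular libraries. Their ratio was 0.57 to 0.83 in all MG-N and MG-NP glands and 0.72 to 0.85 in 5 of the 8 tumors, but 0.41, 0.45 and 0.43 in T-N replicates 3 and 4 and T-NP replicate 3. In MG-WT it was 1.55, 1.26 and 0.92. The same 3 tumors had the highest ratios of *H2-Ea-ps* to *H2-Eb1* among tumors, at 0.78, 0.76 and 0.63 against 0.33 to 0.40. Since *H2-Eb1* is in both ratios, a low *H2-Eb1* raises the second by construction, and the second ratio is no separate observation. *H2-Ea-ps* is the annotated I-E α chain locus, which is inactivated by a promoter deletion in C57BL/6 mice and functional in BALB/c mice. It had 992 and 1265 normalized counts in MG-WT replicates 1 and 2, and 19.1 in replicate 3, where its ratio to *H2-Eb1* was 0.0047. In the other 16 libraries it had 443 to 5766 counts. The H2 haplotypes of these animals are not given, and reads were aligned to a single reference, so the part of allele differences in the levels of the H2 genes was not tested. These ratios were also singled out after their values were seen.

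**Figure D5:**
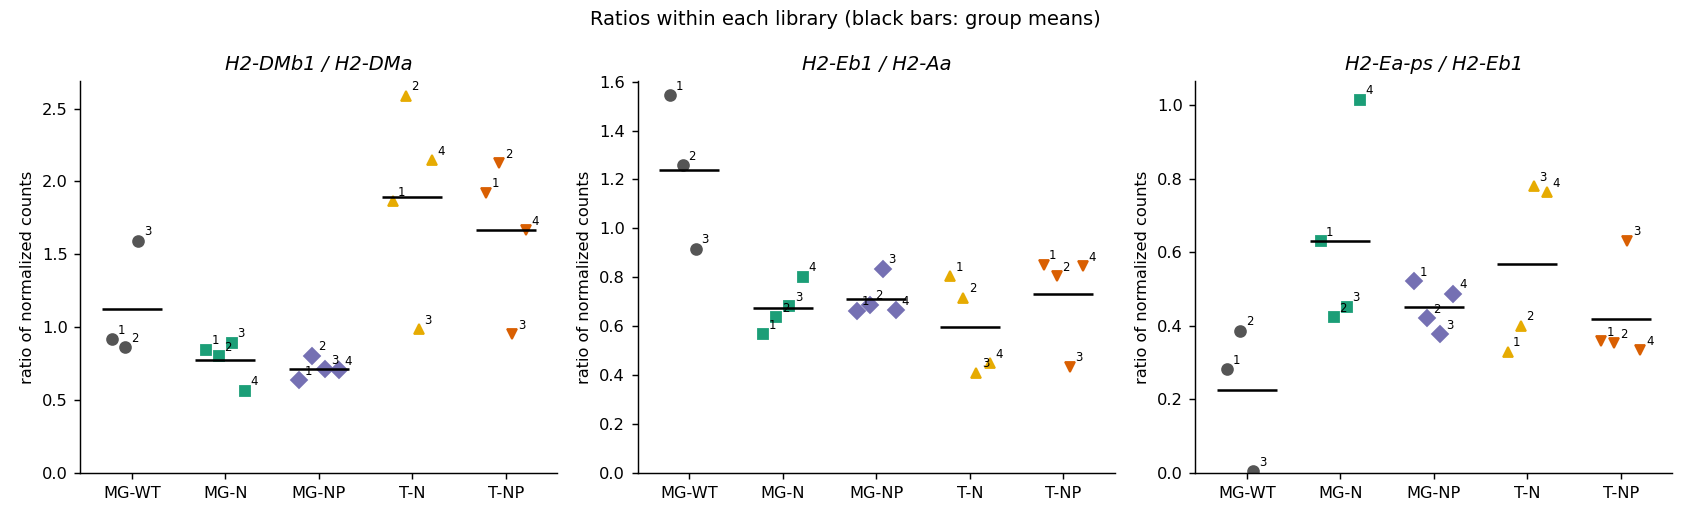
Ratios of normalized counts within each library for *H2-DMb1* over *H2-DMa* (left), *H2-Eb1* over *H2-Aa* (middle) and *H2-Ea-ps* over *H2-Eb1* (right), with points numbered by replicate and bars at the group means. On the left all tumors (0.95 to 2.59) lie above all MG-N and MG-NP glands (0.56 to 0.89), and on the right MG-WT replicate 3 lies near 0.

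Comparing genotypes asks whether class II genes differed with mutant p53 in the stroma. MG-N replicates 2 to 4 lacked Fsp-Cre and replicate 1 lacked the p53wm-R172H/+ allele. In the glands, Cre and mutant p53 therefore cannot be told apart, and the same holds for the interaction below. All T-N tumors carried Fsp-Cre and lacked the p53wm-R172H/+ allele. In MG-NP against MG-N, 0 of 7 members were called, with 0 at an unadjusted p-value under 0.05 by limma and 0 called by edgeR or DESeq2. The log2 differences ran from -0.09 ± 0.35 (*H2-DMb1*) to 0.05 ± 0.69 (*Ciita*). These values moved with the glands included. Leaving out single glands moved *Ciita* between -0.41 and 0.46. All 7 members were positive without the muscle-rich MG-NP glands, from 0.54 (*H2-DMb1*) to 1.25 (*Ciita*). All 7 were negative without the lymph node-rich glands of both groups, from -0.84 (*H2-DMb1*) to -0.53 (*Ciita*), with none called in either case. In MG-NP both fits come from a single split of the glands, along which all 7 members also separated. The MG-NP mean therefore rises in the former and falls in the latter by construction. These values are no test of muscle or lymph node tissue. No gene at all, 0% of 18563, was called by limma in this comparison, where 1950 had an unadjusted p-value under 0.05 and DESeq2 called 519. In T-NP against T-N, 0 members were called by limma, edgeR or DESeq2, 0 had an unadjusted p-value under 0.05, and the background was 0.0421% of 16638 genes. All 7 log2 differences were positive, from 0.14 ± 0.40 (*Ciita*) to 0.46 ± 0.45 (*H2-Eb1*), and every member's ranges overlapped between the genotypes. Equal levels are not shown by these p-values, since the standard errors in the tumors were 0.25 to 0.50 on the log2 scale.

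Whether the tumor difference itself differed between the N and NP groups was tested by an interaction contrast over 16 libraries. 0 of 7 members and 0% of 19367 genes were called by limma, 1536 genes and 0 members had an unadjusted p-value under 0.05, and 0 members were called by edgeR or DESeq2. The estimates ran from 0.09 ± 0.84 (*Ciita*) to 0.41 ± 0.67 (*H2-Eb1*). All 7 turned negative without the muscle-rich MG-NP glands, from -1.11 (*Ciita*) to -0.33 (*H2-DMb1*). They rose to between 0.67 (*Ciita*) and 1.11 (*H2-Ab1*) without the lymph node-rich glands, none called. Both fits use the same split of the MG-NP glands as above, so these shifts are no test of either tissue. The 5 calls in T-N and the single call in T-NP therefore do not show that these groups differ.

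Of 5 other class II genes, 4 were called lower in T-N against MG-N, and 3 of 4 tested were called lower in T-NP against MG-NP. *H2-Ob* and *H2-Oa* encode the chains of DO, an inhibitor of DM found mainly in B cells. *H2-Ob* had 594, 55.2, 219.8 and 730.2 counts in MG-N and 11.4, 4.21, 53.5 and 12.8 in T-N, an 18.2-fold difference (limma adjusted p = 0.00582), and was 12.3-fold lower in T-NP than in MG-NP (limma adjusted p = 0.0136). *H2-Oa* was 13.2-fold lower in T-N (limma adjusted p = 0.00128) and 9.56-fold lower in T-NP (limma adjusted p = 0.0371). *H2-DMb2*, a second DM β chain, was 4.36-fold lower in T-NP (limma adjusted p = 0.0308), whereas in T-N its log2 difference of -1.41 was not called (limma adjusted p = 0.0865). *H2-Eb2* had 11.5 to 115 counts in MG-N and at most 2.02 in T-N. B cell genes moved with these in both comparisons, as given above.

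Among 8 genes of endosomal processing, few were called in tumors. The ubiquitin ligase *March1*, which removes class II molecules from the surface of dendritic cells and B cells, was 4.08-fold lower in T-N (limma adjusted p = 0.00121) and 3.41-fold lower in T-NP (limma adjusted p = 0.0202). Its relative *March8* was called higher in T-NP at 2.01-fold (limma adjusted p = 0.000574) and was 1.41-fold higher in T-N, under the fold threshold. The median over the list was 0.10 in T-N and 0.50 in T-NP on the log2 scale. The proteases and the thiol reductase were singled out here after their values were seen. The 5 proteases went in both directions, from -0.76 (*Ctsb*, limma adjusted p = 0.0108, under the fold threshold) to 0.42 (*Ctss*) in T-N and from -0.24 (*Ctsb*) to 0.77 (*Ctsd*) in T-NP, none called. *Ctss* is the cathepsin that trims the invariant chain. The reductase *Ifi30* had 0.88 (limma adjusted p = 0.00219, under the fold threshold) and 1.05 (limma adjusted p = 0.107). When MG-N glands were set against normal glands, 6 of the 8 genes were called higher, together with 9 of 10 macrophage genes.

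The promoter factors that CIITA docks on did not share the lower level of the class II genes. The log2 differences of *Rfx5*, *Rfxap*, *Rfxank*, *Nfya*, *Nfyb*, *Nfyc* and *Creb1* ran from -0.17 to 0.85 in T-N and from -0.17 to 0.60 in T-NP, all under the fold threshold, with medians of 0.39 and 0.16. The RFX subunits *Rfxap* and *Rfxank*, named after their values were seen, were 0.85 and 0.83 higher in T-N on this scale (limma adjusted p = 0.0065 and 0.00585). Of the interferon-gamma pathway, 2 of 7 tested genes were called lower in each tumor comparison. The receptor chain *Ifngr1* was 3.18-fold lower in T-N (limma adjusted p = 0.000585) and 2.9-fold lower in T-NP (limma adjusted p = 0.000275). The kinase *Jak1* was called in T-N (2.45-fold lower, limma adjusted p = 0.00152) and the feedback inhibitor *Socs1* in T-NP (2.66-fold lower, limma adjusted p = 0.0382). *Ifng* itself was too low to be tested in tumors against glands. Between MG-N and normal glands, 2 of 8 genes of this pathway were called higher and 3 lower.

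Costimulatory ligands, which antigen-presenting cells display beside class II, were called lower in T-N for 4 of 4 genes and in T-NP for 2 of 4. *Cd80* had 61.1, 65.5, 47 and 111 counts in MG-N and 6.82, 5.27, 29.3 and 1.17 in T-N, a 9.12-fold difference (limma adjusted p = 0.00642), and was 9.11-fold lower in T-NP (limma adjusted p = 0.0052). *Icosl* was 3.45-fold and 4.27-fold lower (limma adjusted p = 0.000995 and 0.00207). *Cd40* and *Cd86* were 3.65-fold and 3.13-fold lower in T-N (limma adjusted p = 0.00287 and 0.0145) and were not called in T-NP, with limma adjusted p-values of 0.0749 and 0.221. Under the pan-leukocyte scaling the log2 difference of *Cd86* in T-N became 0.09, and those of *Ifngr1* became 0.08 in T-N and 0.22 in T-NP.

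The members varied together within groups. After each gene's group mean was subtracted, the correlation of a member with the mean of the members over 19 libraries was 0.98 for *H2-Ab1*, 0.95 for *Cd74* and for *H2-Aa*, 0.94 for *H2-DMa*, 0.92 for *H2-Eb1*, 0.88 for *Ciita* and 0.75 for *H2-DMb1*. Among the 20392 genes compared, the 10 non-members with the highest correlation were *Sept1*, *Cd3d*, *Abi3*, *Dusp2*, *Otulinl*, *Cd3g*, *Skap1*, *Cd83*, *Hvcn1* and *Aif1*, from 0.93 down to 0.90. *Cd3d* and *Cd3g* encode chains of the T cell receptor complex, and *Cd83* is a marker of activated dendritic cells. The same 10 genes were found in the 16 libraries without MG-WT. These values are descriptive: the libraries share their tissue makeup, and the 4 MG-NP glands, with their large spread, weigh heavily.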

How the data were processed

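Total RNA of mammary glands and tumors was made into TruSeq libraries and sequenced as 75-base pairs. By the study's methods the authors aligned reads to GRCm38 with TopHat2 2.1.1 and Bowtie2 and used DESeq2. The read counter, annotation and use of strand are not given in the sources used here. The deposited signal is the authors' gene count divided by a size factor per library. Whole reads were recovered from its steps (tolerance 0.05 reads), except that the step of T-N replicate 3 was too near 1 to tell. Symbols were found for 45143 of the 46078 identifiers (97.97%). Every pair of replicates differed beyond sampling noise.

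The main test was limma 3.58.1 (R 4.3.3; eBayes with trend) on log2(normalized count + 1), on the samples of the groups compared and without covariates, over genes with at least 10 normalized counts in as many samples as the smaller group, with Benjamini-Hochberg adjustment over all tested genes. The pseudocount makes fold changes of low genes too small. p-values set each group difference against the spread between these samples, which need not all be separate animals. edgeR 4.0.16 and DESeq2 1.42.0 on the recovered reads, other pseudocounts, filters and scalings, a muscle covariate, a replicate block and leaving out each sample were alternatives. The code was tested on simulated data. Ratios were compared by exact permutation of log2 values.

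Named genes were the 7 members, at most 4 called genes per pathway list with the largest change in a tumor comparison, and the 10 genes most like the members. Members and lists were chosen with earlier results of these data known. Promoter sequence is from RefSeq (GRCm38.p6). Gene positions are from GENCODE on GRCm38.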

Additional observations from a re-analysis of the deposited data

Results flagged for a closer look

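Within-group outliers were sought by Dixon's ratio in 52 groups of 4 samples, and 4 exceeded the 95% critical value, where chance flags about 1 in 20 groups. The *H2-Ab1* to *H2-Aa* ratio of T-NP replicate 1 was 1.124, above the 0.776 to 0.835 of the other T-NP tumors. The *H2-Eb1* to *H2-Aa* ratio of MG-NP replicate 3 was 0.835, above the 0.663 to 0.688 of the other MG-NP glands. In T-NP replicate 3 that ratio was 0.4343, below the 0.804 to 0.851 of the other T-NP tumors, and the *H2-Ea-ps* to *H2-Eb1* ratio was 0.6317, above their 0.334 to 0.358. Allele differences in the H2 region were not tested for any of these.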

How the results depend on the processing

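Besides the value reported, class II genes were counted under each alternative. In MG-N against MG-WT (1 called), edgeR, DESeq2, the pan-leukocyte scaling, 1 fit of all 5 groups and the replicate block each gave 0, no fold threshold gave 2, and leaving out a sample gave 0 to 1. In MG-NP against MG-WT (0 called), DESeq2 gave 1 (20.9% of all genes called higher), a muscle covariate 4 and leaving out a sample 0 to 2 (2 without MG-NP replicate 2). In T-N against MG-N (5 called), edgeR gave 3 (21.1% of all genes called lower) and the pan-leukocyte scaling 1, higher (62.7% called higher). Leaving out a sample gave 2 to 6 (2 without T-N replicate 4, 3 without MG-N replicate 2 or 4 or T-N replicate 2). In T-NP against MG-NP (1 called), DESeq2 gave 3 (25.3% of all genes called lower) and the pan-leukocyte scaling 1, higher (32.5% called higher). The fit of all groups gave 2, averaging T-NP replicates 1 and 2 gave 0, and leaving out a sample 0 to 4. Leaving out the glands of highest lymph node stroma sums gave 0 in each of these comparisons, and leaving out the MG-NP glands of highest muscle sums gave 6 in MG-NP against MG-WT (18.7% of all genes called higher) and 6 in T-NP against MG-NP (24.1% called lower); these 2 alternatives were chosen after seeing the data. For fits without 1 sample, the muscle covariate and the fit of all groups, the share of all genes called is not given here. The cause of each change was not tested. In both genotype comparisons and the interaction every alternative gave 0. Replicate numbers did not pair the samples (correlations of -0.257 to 0.285), and with the replicate block T-N against MG-N had 4 calls and T-NP against MG-NP 1.

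Directions turned as follows, in log2 differences. Under the pan-leukocyte scaling, which moved the median of all genes to -1.16 in MG-N and -1.12 in MG-NP against MG-WT, *H2-Aa*, *H2-Ab1*, *H2-Eb1*, *Cd74*, *Ciita*, *H2-DMa* and *H2-DMb1* were at -0.16, -0.69, -1.02, -0.84, -0.64, -0.45 and -0.94 in the former and -0.17, -0.61, -0.95, -0.79, -0.55, -0.40 and -1.0 in the latter. In T-N against MG-N, *H2-Aa*, *H2-Ab1*, *H2-Eb1*, *Cd74* and *H2-DMa* were at 0.51, 0.81, 0.28, 0.62 and 0.56, and in T-NP against MG-NP *H2-Aa*, *H2-Ab1*, *H2-Eb1*, *Cd74*, *Ciita* and *H2-DMa* were at 0.71, 1.15, 0.71, 0.88, 0.04 and 0.93. *Ifngr1* was at 0.08 and 0.22, *Socs1* at 0.28, *Jak1* at 0.46 and *Cd86* at 0.09. With the muscle covariate, *H2-DMb1* was at -0.62 in T-NP against MG-NP, *H2-Aa* and *H2-DMb1* at 0.86 and 0.50 in MG-NP against MG-N, and *Ciita* at -0.46 in the interaction. By edgeR and DESeq2, *H2-Aa* was at 0.14 and 0.15 and *H2-DMb1* at 0.06 in MG-NP against MG-N, *Ciita* at -0.03 and -0.04 in T-NP against T-N, and *Cd74* at -0.02 and -0.03 and *Ciita* at -0.38 in the interaction. By TMM, *Cd74* and *H2-DMa* were at -0.02 and -0.03 in MG-NP against MG-N. Without the glands of highest lymph node stroma sum, *Ciita* was at -0.06 in MG-N against MG-WT, *H2-Ab1*, *H2-Eb1*, *Cd74*, *Ciita* and *H2-DMb1* were at -0.26, -0.60, -0.50, -0.59 and -0.48 in MG-NP against MG-WT, *H2-DMb1* at -0.07 in T-N against MG-N, *H2-Ab1* at 0.21 in T-NP against MG-NP, and *H2-Ab1*, *H2-Eb1*, *Cd74*, *Ciita* and *H2-DMa* at -0.73, -0.63, -0.67, -0.53 and -0.67 in MG-NP against MG-N. Without the muscle-rich glands, *H2-DMb1* was at -0.30 in T-NP against MG-NP, *H2-Aa* and *H2-DMb1* at 0.70 and 0.54 in MG-NP against MG-N, and the interaction of the 7 genes in the above order at -0.55, -0.48, -0.40, -0.63, -1.11, -0.35 and -0.33.

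Leaving out single samples turned the sign in MG-NP against MG-N for all 7 genes (*H2-Aa* -0.31 to 0.30, *H2-Ab1* -0.26 to 0.39, *H2-Eb1* -0.28 to 0.40, *Cd74* -0.32 to 0.38, *Ciita* -0.41 to 0.46, *H2-DMa* -0.24 to 0.33, *H2-DMb1* -0.34 to 0.17), in T-NP against T-N (*H2-Aa* -0.10 to 0.47, *Ciita* -0.19 to 0.45), in the interaction (*H2-Aa* -0.15 to 0.52, *H2-Ab1* -0.00 to 0.65, *Cd74* -0.12 to 0.59, *Ciita* -0.32 to 0.55), in MG-NP against MG-WT (*H2-Eb1* -0.10 to 0.57, *H2-DMb1* -0.10 to 0.42) and in T-N against MG-N (*H2-DMb1* -0.13 to 0.23). Members had at least 103 reads in every library, so counting error limits none of these values as much as the spread between samples does.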
